A study of Mus musculus with 25 samples.

Results

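Tumors that stayed small and tumors that grew large on the same antibody treatment were compared gene by gene. All were grown by YUMM1.7, a mouse melanoma cell line with mutant Braf, in C57BL/6 mice. The small tumors (aPDL2_small, n = 2) were residual while on a BRAF inhibitor together with an antibody against PD-L2. The large tumors (aPDL2_large, n = 2) were resistant to that same combination. A further set of tumors of the same batch (Prog_b2, n = 3) was resistant to the inhibitor without the antibody. These 7 tumors are all labelled as batch 2. The genes compared were those with a mean of at least 1 FPKM (fragments per kilobase of transcript, scaled to the fragments mapped in a library) over the 4 tumors on the antibody, which held for 12019 of 23940 gene symbols. At the edge of that limit, Lad1 (mean 1.0005 FPKM) and Ptger2 (mean 1.0010 FPKM) were inside it, and Cdh24 (mean 0.9975 FPKM) and Tyw3 (mean 0.9974 FPKM) were outside it. A weak gene could pass it by the tumors of a single group, which favors a difference in such genes.

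The whole series holds 25 tumor biopsies in 7 groups. Of the others, the residual (Res, n = 5) and resistant (Prog, n = 5) tumors on the inhibitor without antibody are used below as a second pair of residual and resistant tumors. The labels name neither the inhibitor's compound nor the times at which tumors were taken, and they do not say whether tumors came from separate mice. The p-values therefore measure the spread between these samples, which may be technical. All tumors came from 1 cell line, and a biopsy holds tumor cells and host cells together. In such bulk samples, fewer cells of a type and less RNA per cell cannot be told apart.

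PD-L2, encoded by Pdcd1lg2, is a ligand of the T cell receptor PD-1, and macrophages and dendritic cells carry much of it. Mutant Braf drives the MAPK pathway, in which ERK induces its own feedback inhibitors and the cyclins that start the cell cycle. A BRAF inhibitor lowers that output, and melanomas commonly regain it when they become resistant. Interferons are cytokines that raise antigen presentation: interferon gamma comes mainly from T and natural killer cells, and type I interferons from many cells that sense nucleic acids. Mast cells, macrophages and other host cells reside in the skin and can enter such tumors.

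At this sample size, 0 of the 12019 genes passed limma's test (0% called; adjusted p below 0.05), and the smallest adjusted p was 0.0617. That gene was Scarna3b, a small nuclear RNA listed at 0 in both small tumors and at 9.31 and 9.47 FPKM in the large tumors. At an unadjusted p below 0.05 there were 999 genes (8.31%), of which 715 (5.95%) were higher and 284 (2.36%) lower in the small tumors. Both small tumors lay above both large tumors for 2401 genes (20.0%) and below both for 3214 genes (26.7%). Many differences were large all the same: of the genes without overlap, 862 were at least 2-fold higher in the small tumors and 144 at least 2-fold lower, on the log2(FPKM + 1) scale. The median difference over all genes was -0.05 on the log2 scale, with a median standard error (SE) of 0.28. When the spread was estimated over all 25 tumors instead, 65 genes passed (0.541%), 46 higher (0.383%) and 19 lower (0.158%), and none of these overlapped between the groups. That fit takes 1 spread for all groups, including groups where a gene lies near 0 FPKM and can vary little. Retnla in Prog is such a case, at 0.0604 ± 0.0600 FPKM (SD, n = 5). The values below are therefore given as measured levels, and an exact permutation of 2 against 2 tumors has 6 arrangements and cannot give a two-sided p under 0.33.

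The strongest gap belonged to Retnla, which encodes a secreted protein of alternatively activated macrophages. Retnla stood at 1002 and 122 FPKM in the small tumors, against 0.774 and 0.959 FPKM in the large tumors, and at 0.245, 0.221 and 0.439 FPKM in Prog_b2. Its log2 difference was 7.56 ± 0.86 (SE; limma adjusted p = 0.118, and 0.000164 with the spread of 25 tumors). Both small tumors lay far above all 5 other tumors of the batch, yet they differed from each other as well. Lyz1, a lysozyme, was more even, at 43.6 and 23.3 FPKM in the small tumors and 0.756 and 1.62 FPKM in the large tumors (log2 difference 3.94 ± 0.39; adjusted p = 0.118). Lyz1 passed with the spread of 25 tumors (adjusted p = 0.000252). Ear2, a ribonuclease of eosinophils and macrophages, was at 52.6 and 9.06 FPKM in the small tumors and at 0.253 and 0.383 FPKM in the large tumors. Genes of near-identical families, among them Lyz1, Ear2 and Tpsb2, may share reads with their copies, so how the authors' counting divided those reads is uncertain.

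Mast cell genes lay far apart between the groups. The chymase Mcpt4 was at 74.8 and 42.9 FPKM in the small tumors and at 2.93 and 4.51 FPKM in the large tumors (log2 difference 3.63 ± 0.40; adjusted p = 0.118). Cma1, another chymase, was at 69.5 and 32.0 FPKM in the small tumors and at 1.64 and 3.45 FPKM in the large tumors, and the tryptase Tpsb2 at 87.5 and 55.0 FPKM in the small and 4.43 and 4.42 FPKM in the large tumors. Group means of these granule proteases thus differed by more than 10-fold, and the 3 Prog_b2 tumors lay near the large ones, with Mcpt4 at 4.67, 5.36 and 2.40 FPKM. Cpa3, the mast cell carboxypeptidase, Fcer1a, a chain of the IgE receptor, and Kit, the receptor for stem cell factor, were also higher in both small tumors. Of the 11 genes on the mast cell list, 10 passed the expression limit, with a median log2 difference of 2.04. In both small tumors 8 were higher and 1 was lower, where 20.0% and 26.7% of all genes tested were. The exceptions were Gata2, a transcription factor of several lineages, and Mcpt1, which stood at 0.359 and 28.9 FPKM in the small tumors and 13.9 and 2.54 FPKM in the large tumors.

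**Figure D1:**
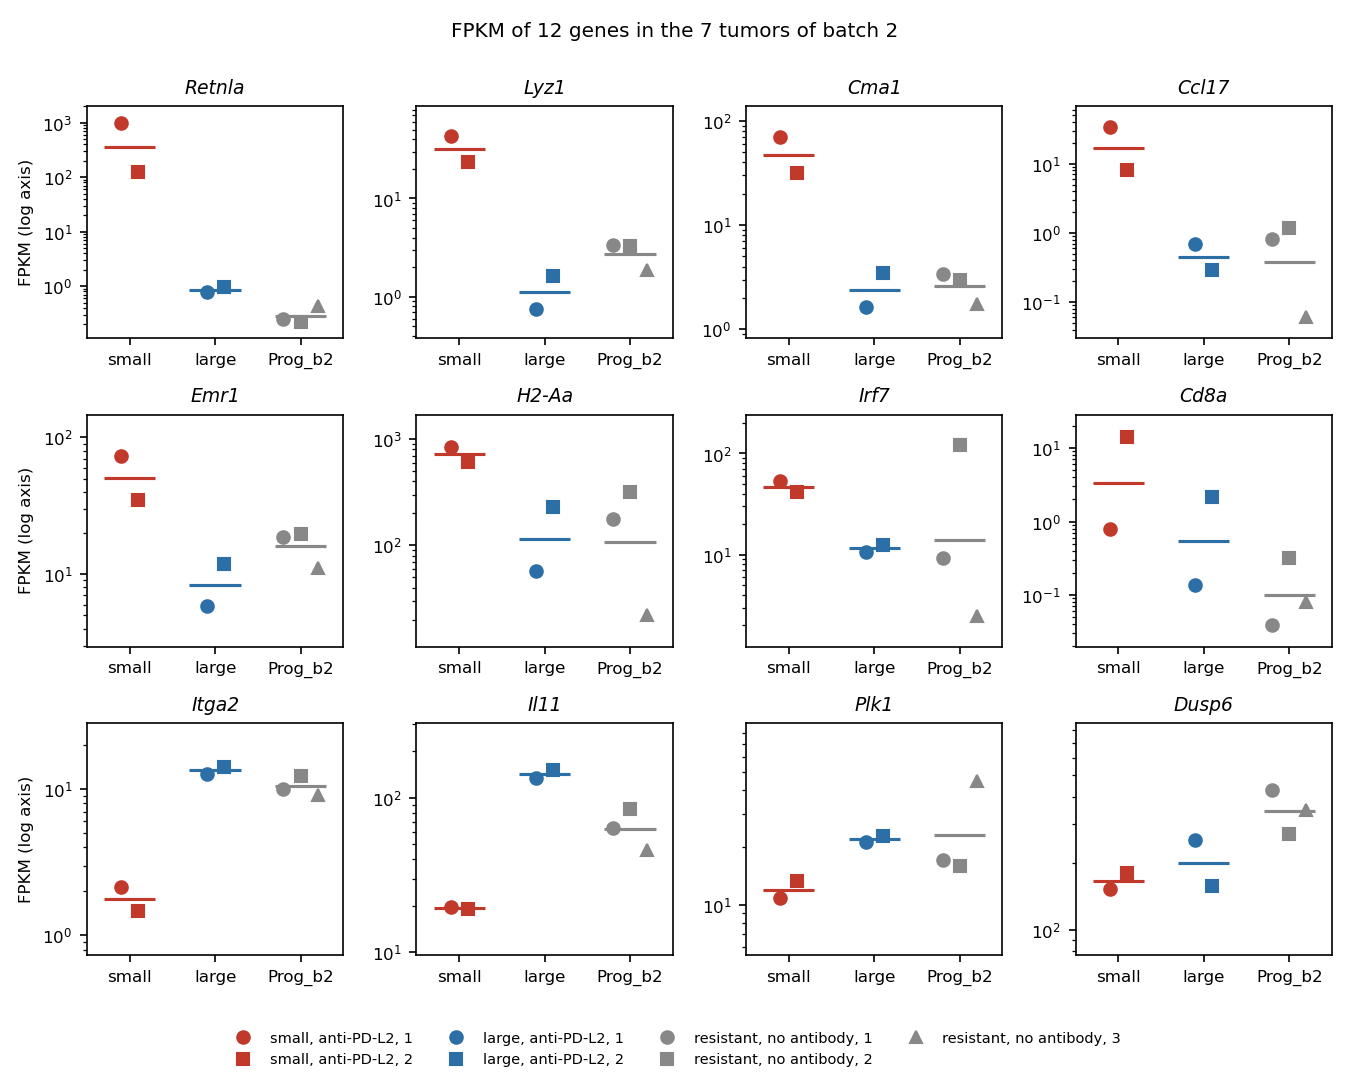
FPKM of 12 genes on a log axis in the small and large tumors on anti-PD-L2 and in the resistant tumors without antibody (Prog_b2); each point is 1 tumor and each bar the geometric mean of its group. Retnla, Lyz1, Cma1 and Ccl17 lie higher in both small tumors than in the other 5, Itga2 and Il11 lie lower in both, and Cd8a and Dusp6 overlap between small and large tumors.

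Macrophage markers were higher in the small tumors and varied between them. Emr1, which encodes the macrophage protein F4/80, was at 73.3 and 35.1 FPKM in the small tumors, against 5.88 and 11.8 FPKM in the large tumors (log2 difference 2.47 ± 0.47; adjusted p = 0.465). The lysozyme Lyz2 was at 960 and 436 FPKM in the small tumors and at 84.8 and 145 FPKM in the large tumors. Small 1 held the most of both genes and large 1 the least. All 16 macrophage genes passed the expression limit, and the median log2 difference was 1.75. In both small tumors 12 were higher and 1 was lower, where 20.0% and 26.7% of all genes tested were. The gene that lay lower was Mertk, a receptor for apoptotic cells, at 15.6 and 20.9 FPKM in the small and 31.8 and 25.8 FPKM in the large tumors. Cd163 and Mrc1, scavenger receptors of resident macrophages, overlapped because large 2 exceeded small 2. Mrc1 was at 175 and 35.2 FPKM in the small tumors and at 17.3 and 36.5 FPKM in the large tumors.

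The list for alternative activation repeated this order with wider gaps. Of its 13 genes, 12 passed the limit and 8 were higher in both small tumors, as were 20.0% of all genes tested. The median log2 difference was 2.01. Ccl17, a ligand of the receptor CCR4, was at 34.0 and 8.17 FPKM in the small tumors and at 0.691 and 0.287 FPKM in the large tumors (log2 difference 3.602 ± 0.66; adjusted p = 0.465). Ccl22, which binds the same receptor, was at 13.6 and 21.95 FPKM in the small tumors and at 0.595 and 1.22 FPKM in the large tumors. Both ligands were above the large tumors by an order of magnitude in each small tumor. Arg1, the arginase of such macrophages, did not follow: only small 1 was high, at 177 FPKM, while small 2 was at 17.4 FPKM and the large tumors at 22.81 and 22.98 FPKM. Il10, an inhibitory cytokine, went the other way in 1 tumor, at 1.64 and 10.5 FPKM in the small and 8.83 and 25.7 FPKM in the large tumors.

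Complement genes lay higher in both small tumors for 13 of the 15 listed, all of which passed the limit (median log2 difference 2.05). Over all genes tested, 20.0% lay higher in both. C3, the central component, was at 236 and 83.6 FPKM in the small tumors and at 1.36 and 32.4 FPKM in the large tumors (log2 difference 3.99 ± 1.26; adjusted p = 0.529). C1qa, which encodes a chain of the recognition complex made by macrophages, was at 755 and 429 FPKM in the small and 114 and 228 FPKM in the large tumors. In both genes large 2 lay between the small tumors and large 1. C4b, which may share reads with the near-identical C4a, overlapped between the groups. Of the 17 CC chemokines, 14 passed the limit, 11 were higher in both small tumors and the median log2 difference was 1.93. Ccl8, a chemoattractant of myeloid cells, was at 1201 and 590 FPKM in the small tumors and at 73.9 and 152 FPKM in the large tumors (log2 difference 2.98 ± 0.75; adjusted p = 0.513). Its Prog_b2 values of 94.8, 226 and 47.8 FPKM were like those of the large tumors.

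Genes that interferons induce were higher in both small tumors almost without exception. All 20 type I interferon genes passed the limit and all 20 were higher in both small tumors, as were 20.0% of all genes tested. Their median log2 difference was 1.29. Irf7, the transcription factor that amplifies the type I response, was at 53.1 and 41.5 FPKM in the small tumors, against 10.7 and 12.6 FPKM in the large tumors (log2 difference 1.93 ± 1.48; adjusted p = 0.779). Isg15, a ubiquitin-like modifier, was at 75.1 and 57.8 FPKM in the small and 24.7 and 31.3 FPKM in the large tumors. The 3 Prog_b2 tumors, which enter the SE, were far more spread than the tumors on the antibody: Irf7 was at 9.29, 121 and 2.45 FPKM in Prog_b2. That tumor, Prog_b2 2, was resistant without the antibody and exceeded both small tumors in Irf7 and Isg15. None of the 20 genes had an unadjusted p below 0.05. The gap between small and large tumors was thus within the spread that resistant tumors of this batch showed among themselves.

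Interferon gamma targets gave the same picture, with 19 of 20 genes above the limit and 17 higher in both small tumors. Their median log2 difference was 1.55, and 20.0% of all genes tested were higher in both. Cxcl9, a chemokine that attracts T cells and depends on interferon gamma, was at 11.1 and 17.2 FPKM in the small tumors and at 0.888 and 2.34 FPKM in the large tumors (log2 difference 2.56 ± 0.86; adjusted p = 0.549). The guanylate-binding protein gene Gbp2 was at 44.7 and 46.7 FPKM in the small and 6.54 and 9.74 FPKM in the large tumors. Ifng itself lay below the expression limit, at 0.255 and 0.670 FPKM in the small tumors and 0.0831 and 0.137 FPKM in the large tumors. The targets that overlapped were Cd274 and Socs1, a feedback inhibitor. All 15 genes of MHC class I presentation and the immunoproteasome were higher in both small tumors (median log2 difference 1.43), among them H2-K1, a class I heavy chain, at 358 and 623 FPKM in the small and 98.9 and 133 FPKM in the large tumors. For MHC class II, 10 of 11 genes passed the limit and 8 were higher in both small tumors (median 2.11). H2-Aa, a class II chain, was at 850 and 609 FPKM in the small and 57.7 and 232 FPKM in the large tumors.

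The promoters of both kinds of listed genes were searched for the sequence through which interferon acts, and a few are shown so that the element can be seen beside the values above. Each is 150 bases long and ends at the base before the annotated start, from RefSeq on GRCm38.p6, written along the gene's strand. Capitals mark the interferon-stimulated response element, 2 copies of GAAA with any 2 bases between them, or its reverse complement.
Ifit1, chr19:34640739-34640888, + strand: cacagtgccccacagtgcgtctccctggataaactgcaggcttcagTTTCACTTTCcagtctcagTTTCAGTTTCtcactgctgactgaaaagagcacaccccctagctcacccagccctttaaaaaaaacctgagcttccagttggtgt
Isg15, chr4:156200819-156200968, - strand: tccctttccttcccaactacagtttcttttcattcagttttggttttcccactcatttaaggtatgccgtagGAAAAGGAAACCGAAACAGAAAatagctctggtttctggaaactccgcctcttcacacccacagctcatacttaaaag
Gbp2, chr3:142620513-142620662, + strand: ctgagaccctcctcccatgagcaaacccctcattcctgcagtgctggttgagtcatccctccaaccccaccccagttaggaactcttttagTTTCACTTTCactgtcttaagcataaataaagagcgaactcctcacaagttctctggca
Igtp, chr11:58199406-58199555, + strand: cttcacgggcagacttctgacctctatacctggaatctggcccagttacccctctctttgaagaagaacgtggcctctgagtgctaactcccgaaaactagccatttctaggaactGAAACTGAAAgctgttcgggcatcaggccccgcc
In the 250 bases before the start, on both strands, 10 of the 13 interferon gamma genes with a RefSeq promoter held the element (76.9%), and 6 of the 15 type I genes (40%). Over all 27025 genes with such a promoter, 936 held it (3.5%). Matches in Isg15 overlap each other. A match is a description of these letters and says nothing of binding in these tumors.

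T cell genes leaned higher in the small tumors, but most overlapped between the groups. Cd8a, the co-receptor of cytotoxic T cells, was at 0.785 and 14.2 FPKM in the small tumors and at 0.138 and 2.15 FPKM in the large tumors (log2 difference 1.46 ± 0.99; adjusted p = 0.748). Small 2 was highest, but large 2 exceeded small 1, and without small 2 the difference was -0.08. The same order held for Cd3e, a chain of the T cell receptor complex, at 2.43 and 20.4 FPKM in the small and 0.316 and 3.57 FPKM in the large tumors. Of the 13 T cell genes, 11 passed the limit and 2, Cd2 and Zap70, were higher in both small tumors, as were 20.0% of all genes tested. The median log2 difference was 1.67, and the difference was above 0 for each of the 11. Weak genes could pass the limit by the small tumors alone, which favors that sign. Zap70 did so, at 1.31 and 6.20 FPKM in the small and 0.129 and 0.807 FPKM in the large tumors. Of the 6 B and plasma cell genes above the limit 1 did not overlap, and the median was 1.08. B cell genes were alike in order: Cd79a, a chain of the B cell receptor, was at 1.85 and 27.6 FPKM in the small and 0.0680 and 10.2 FPKM in the large tumors. Both tumors numbered 2 thus held the most of these T and B cell transcripts in their group. Igj, the joining chain of secreted antibodies, did not overlap, at 37.2 and 41.4 FPKM in the small and 1.03 and 8.28 FPKM in the large tumors (log2 difference 3.21 ± 0.70; adjusted p = 0.513). Foxp3, the factor of regulatory T cells, was at 0.988 and 2.66 FPKM in the small and 0.711 and 1.27 FPKM in the large tumors and overlapped.

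Killing and natural killer genes above the limit did not overlap between the groups. All 8 of the 14 cytotoxic genes that passed the limit were higher in both small tumors (median log2 difference 1.49), as were 20.0% of all genes tested. The limit itself favors such cytotoxic genes, since weak ones could pass by the small tumors alone. Klrk1, a receptor of natural killer cells, did so, at 3.34 and 2.18 FPKM in the small and 0.208 and 0.367 FPKM in the large tumors. Gzmb, the protease granzyme B, was at 7.46 and 6.995 FPKM in the small tumors and at 1.61 and 3.99 FPKM in the large tumors (log2 difference 1.19 ± 1.33; adjusted p = 0.846). Klrd1, a receptor chain of natural killer cells, was at 5.73 and 10.01 FPKM in the small and 0.595 and 2.00 FPKM in the large tumors. Prog_b2 2 was again high, with Gzmb at 27.5 FPKM.

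The antibody's target and its partners were low and mostly overlapped. Pdcd1lg2 was at 1.80 and 1.65 FPKM in the small tumors and at 0.488 and 2.22 FPKM in the large tumors (log2 difference 0.31 ± 0.45; adjusted p = 0.873). Cd274, which encodes the related ligand PD-L1, was at 4.62 and 10.3 FPKM in the small and 3.80 and 11.6 FPKM in the large tumors. Neither ligand followed tumor size, and large 2 was the highest of the 4 in both; leaving out large 1 turned both differences below 0 (-0.24 for Pdcd1lg2 and -0.66 for Cd274). Pdcd1, which encodes the receptor PD-1, did not overlap, at 0.966 and 3.14 FPKM in the small and 0.312 and 0.745 FPKM in the large tumors (log2 difference 0.92 ± 0.46; adjusted p = 0.662). Of 21 checkpoint genes, 19 passed the limit, with a median log2 difference of 0.92. In both small tumors 11 were higher and 1 was lower, where 20.0% and 26.7% of all genes tested were. Tigit, an inhibitory receptor of T and natural killer cells, was at 1.94 and 4.05 FPKM in the small and 0.413 and 0.976 FPKM in the large tumors. Pdcd1 and Tigit passed the limit by the small tumors alone.

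Other myeloid lists differed in degree. Over all genes tested, 20.0% were higher and 26.7% lower in both small tumors. Of 12 dendritic cell genes, 9 passed the limit, 6 were higher and 1 lower in both (median log2 difference 0.92). Ccr7, the receptor that guides mature dendritic cells and naive T cells to lymph nodes, was at 6.34 and 18.2 FPKM in the small tumors and at 0.539 and 2.51 FPKM in the large tumors (log2 difference 2.35 ± 0.74; adjusted p = 0.529). Neutrophil genes overlapped for the most part, with 3 of the 9 above the limit higher in both small tumors (median 0.61). With so few genes, that count is little above the share over all genes. S100a8, an abundant neutrophil protein, was at 8.97 and 7.61 FPKM in the small and 2.33 and 13.1 FPKM in the large tumors. All 6 CXC chemokines and 5 colony stimulating factor genes without overlap were higher in the small tumors, out of 8 and 6 above the limit. Csf1, the growth factor of macrophages, was at 59.1 and 18.4 FPKM in the small and 11.9 and 17.1 FPKM in the large tumors, so small 2 was barely above large 2.

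Fat tissue markers stood higher with the immune genes. All 10 adipocyte genes passed the limit and were higher in both small tumors, as were 20.0% of all genes tested. Their median log2 difference was 2.29, the highest of the 45 lists. Adipoq, the adipocyte hormone adiponectin, was at 40.2 and 47.3 FPKM in the small tumors and at 0.209 and 24.9 FPKM in the large tumors (log2 difference 2.99 ± 1.46; adjusted p = 0.657). Fabp4, a fatty acid carrier of fat cells and macrophages, was at 340 and 548 FPKM in the small and 3.6 and 244 FPKM in the large tumors. In these genes large 2 lay nearer to the small tumors than to large 1. The mean of the list was 4.55 and 4.68 on the log2(FPKM + 1) scale in the small tumors and 0.39 and 3.86 in the large tumors, and no member was under 0.1 FPKM in all 4. How much of the complement and macrophage difference goes with fat or surrounding tissue was not tested; Cfd, C3 and Fabp4 are made by fat cells as well.

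**Figure D2:**
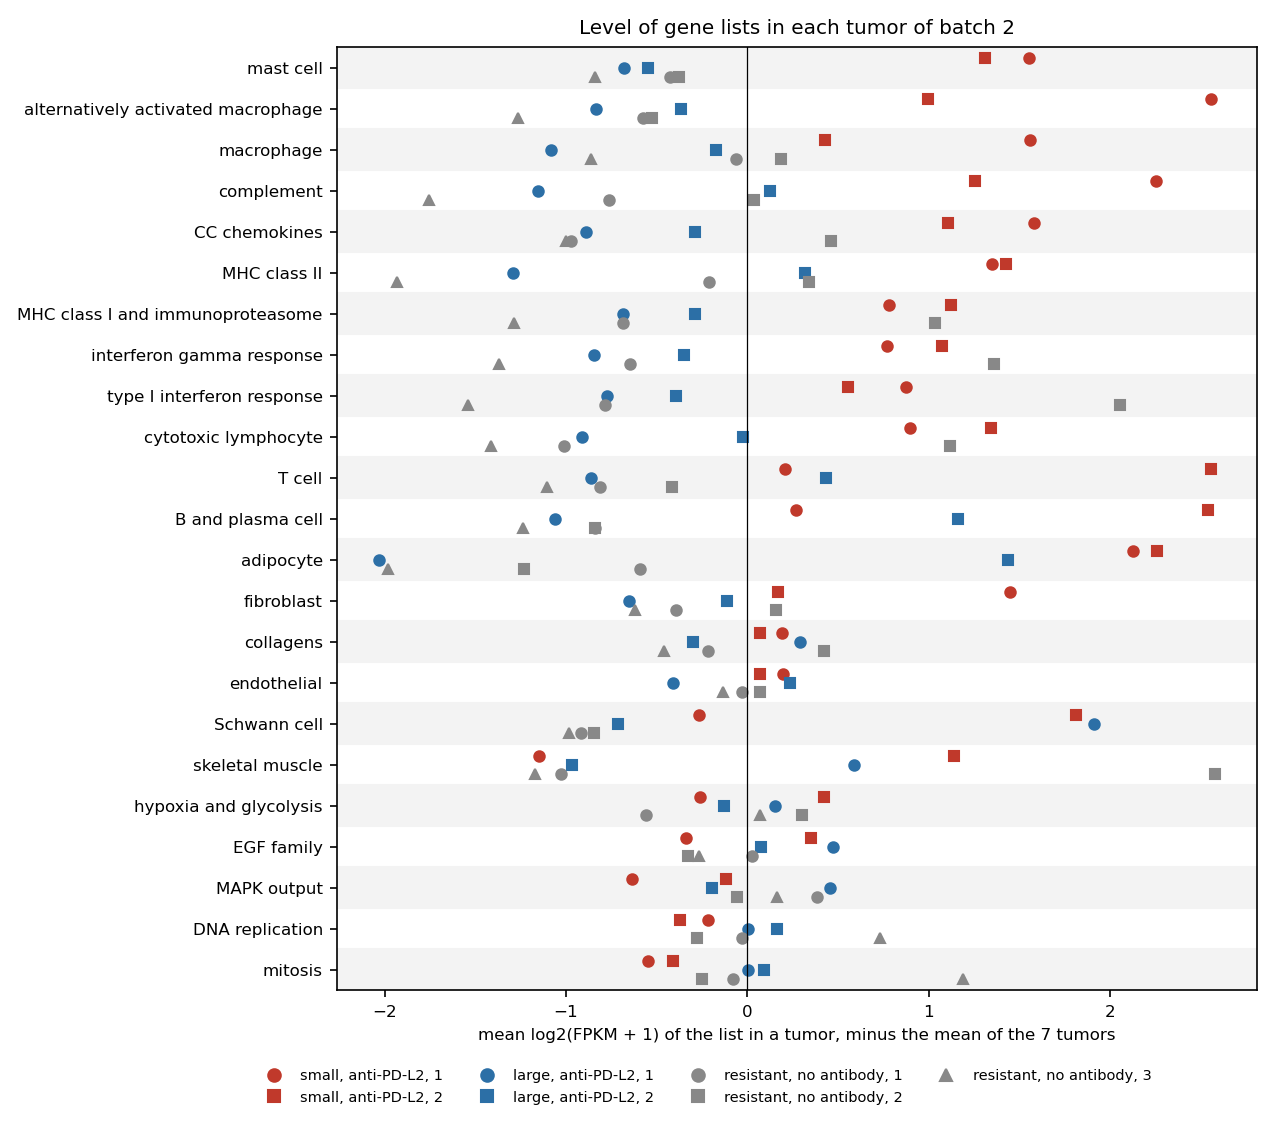
Mean log2(FPKM + 1) of the tested genes of 23 lists in each tumor of batch 2, minus the mean of the 7 tumors; each point is 1 tumor, with the small tumors drawn uppermost in a row. Mast cell, macrophage, complement and interferon lists lie to the right in both small tumors, mitosis lies to the left, and T cell, adipocyte, Schwann cell and muscle lists split the tumors within a group.

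Stromal genes were mixed, and some were high in a single tumor. Col1a1, the main fibrillar collagen of skin, was at 3379 FPKM in small 1, 508 FPKM in small 2, and 364 and 620 FPKM in the large tumors. Of 16 fibroblast genes, all above the limit, 7 were higher and 1 lower in both small tumors (median log2 difference 1.28). Dpt, the matrix protein dermatopontin, was at 374 and 99.3 FPKM in the small tumors and at 7.90 and 26.2 FPKM in the large tumors (log2 difference 3.64 ± 0.84; adjusted p = 0.513, and 0.0171 with the spread of 25 tumors). Spon2, a secreted matrix protein, was at 31.7 and 21.5 FPKM in the small and 1.7 and 1.05 FPKM in the large tumors (adjusted p = 0.216, and 0.0244 with 25 tumors). Collagens of basement membranes leaned the other way, with Col4a2 at 39.7 and 57.9 FPKM in the small and 173 and 84.9 FPKM in the large tumors. Of the 16 collagens, 1 was higher and 5 were lower in both small tumors, where 20.0% and 26.7% of all genes tested were. The count of lower collagens is thus near the share over all genes. Pdgfrb, a growth factor receptor of pericytes and of dedifferentiated melanoma cells, was at 39.0 and 34.5 FPKM in the small and 55.3 and 112 FPKM in the large tumors (log2 difference -1.08 ± 0.58; adjusted p = 0.675). Endothelial genes showed little order: 1 of the 14 above the limit was higher and 2 were lower in both small tumors.

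Fewer genes were markedly lower in the small tumors, and several encode channels, keratins or secreted factors. Itga2, a collagen-binding integrin, was at 2.13 and 1.46 FPKM in the small tumors, against 12.8 and 14.0 FPKM in the large tumors (log2 difference -2.37 ± 0.23; adjusted p = 0.118, and 0.00174 with the spread of 25 tumors). Il11, a cytokine of the interleukin 6 family, was at 19.6 and 19.0 FPKM in the small and 134 and 152 FPKM in the large tumors (log2 difference -2.82 ± 0.29; adjusted p = 0.118). For both genes the small tumors also lay below all 3 Prog_b2 tumors, whose Itga2 values were 10.04, 12.35 and 9.138 FPKM. Il11 did not pass with the spread of 25 tumors (adjusted p = 0.426), since it varied widely in batch 1.

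Kcnk3, a potassium leak channel, was at 0.170 and 0.435 FPKM in the small tumors and at 6.74 and 21.6 FPKM in the large tumors (log2 difference -3.35 ± 0.49; adjusted p = 0.260, and 0.00264 with 25 tumors). Stc1, a secreted glycoprotein, was at 8.89 and 33.7 FPKM in the small and 76.0 and 194 FPKM in the large tumors (adjusted p = 0.513, and 0.0452 with 25 tumors). Dll1, a Notch ligand, was at 1.43 and 1.47 FPKM in the small and 6.55 and 43.3 FPKM in the large tumors. In these genes the small tumors lay below both large tumors, while the large tumors differed among themselves. Krt18, a keratin of simple epithelia, was at 0.0420 and 0.111 FPKM in the small and 6.07 and 8.37 FPKM in the large tumors, and Krt20, a related keratin, at 0.530 and 0.210 FPKM in the small and 5.91 and 40.2 FPKM in the large tumors. Prog_b2 2 was also low in both keratins, at 0.255 FPKM for Krt18 and 0.380 FPKM for Krt20. Pthlh, a parathyroid hormone-related peptide, split the small tumors instead, at 1.60 and 38.2 FPKM in the small and 109 and 90.8 FPKM in the large tumors.

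Proliferation genes were lower in both small tumors by small amounts. All 24 mitosis genes passed the limit, and 23 were lower in both small tumors, with a median log2 difference of -0.53. Of the 21 DNA replication genes, 17 were lower in both (median -0.38). Over all genes tested the share was 26.7%. Plk1, a kinase of mitotic entry, was at 10.8 and 13.4 FPKM in the small tumors and at 21.4 and 23.01 FPKM in the large tumors (log2 difference -0.83 ± 0.48; adjusted p = 0.693). Mki67, the gene of the Ki-67 antigen, was at 10.1 and 10.1 FPKM in the small and 12.6 and 15.2 FPKM in the large tumors (log2 difference -0.42 ± 0.58; adjusted p = 0.872). Among Prog_b2, tumor 3 stood far higher, with Plk1 at 45.0 FPKM and Mki67 at 33.6 FPKM. Prog_b2 1 and 2 lay between the small and large tumors in Plk1, at 17.13 and 16.05 FPKM. In Mki67 they lay below both small tumors, at 9.60 and 9.42 FPKM. No mitosis or replication gene had an unadjusted p below 0.05.

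Promoters of mitosis genes often hold CCAAT boxes, bound by the factor NF-Y, and 3 are shown because their genes lay lower in both small tumors. They have the same length and source as those above, and capitals mark CCAAT on the strand of the gene or its reverse complement.
Ccnb1, chr13:100786487-100786636, - strand: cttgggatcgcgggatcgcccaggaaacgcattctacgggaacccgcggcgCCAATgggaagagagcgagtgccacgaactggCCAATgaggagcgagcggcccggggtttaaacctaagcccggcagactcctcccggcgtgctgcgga
Plk1, chr7:122159285-122159434, + strand: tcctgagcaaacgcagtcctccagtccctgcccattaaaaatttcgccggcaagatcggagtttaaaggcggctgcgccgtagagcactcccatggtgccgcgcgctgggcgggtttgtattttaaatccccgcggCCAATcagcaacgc
Ccnb2, chr9:70421555-70421704, - strand: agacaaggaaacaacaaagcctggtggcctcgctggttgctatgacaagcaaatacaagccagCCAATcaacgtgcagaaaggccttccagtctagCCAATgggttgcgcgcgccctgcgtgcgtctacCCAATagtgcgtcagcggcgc
In the 250 bases before the start, on both strands, 15 of the 20 mitosis genes with a RefSeq promoter held CCAAT (75%), and 10133 of the 27025 genes overall did (37.5%). Ccnb1, which encodes the cyclin B1 of mitotic entry, was at 13.3 and 15.6 FPKM in the small tumors and at 23.5 and 22.6 FPKM in the large tumors.

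MAPK output genes leaned lower in the small tumors by small amounts, and most overlapped between the groups. Dusp6, the phosphatase that ERK induces and that acts back on ERK, was at 153 and 180 FPKM in the small tumors and at 254 and 158 FPKM in the large tumors (log2 difference -0.27 ± 0.31; adjusted p = 0.849). Small 2 exceeded large 2, and without large 1 the difference was 0.07. Spry4, a feedback inhibitor of receptor signalling, did not overlap, at 56.0 and 83.2 FPKM in the small and 230 and 101 FPKM in the large tumors (log2 difference -1.15 ± 0.58; adjusted p = 0.669). Ccnd1, the cyclin D1 that ERK induces, was at 234 and 428 FPKM in the small and 486 and 545 FPKM in the large tumors. Of the 21 genes on the list, 19 passed the limit, with a median log2 difference of -0.44. In both small tumors none was higher and 8 were lower, where 20.0% and 26.7% of all genes tested were. The difference was below 0 for each of the 19, from -1.41 to -0.038. Dusp4, another ERK-induced phosphatase, split the small tumors widely, at 3.84 and 121 FPKM in the small and 73.0 and 55.4 FPKM in the large tumors. Of the 9 EGF family genes above the limit, only Hbegf lay lower in both small tumors, and Areg, another EGF receptor ligand, overlapped, at 34.2 and 166 FPKM in the small and 46.5 and 137 FPKM in the large tumors. Mitf, the master factor of melanocytes, was at 6.06 and 3.86 FPKM in the small and 6.53 and 5.57 FPKM in the large tumors. Axl, a receptor kinase of dedifferentiated melanoma, was at 160 and 198 FPKM in the small and 226 and 179 FPKM in the large tumors.

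Genes of metabolism and of the dedifferentiated state showed little order by tumor size. Of the 21 hypoxia and glycolysis genes, 3 were higher and 2 lower in both small tumors, with a median log2 difference of 0.08, and of the 20 genes of oxidative phosphorylation 5 were higher and 6 lower. Vegfa, the main growth factor of vessels, was at 111.8 and 155.5 FPKM in the small tumors and at 105.4 and 99.5 FPKM in the large tumors (log2 difference 0.36 ± 0.32; adjusted p = 0.807). Of 18 mesenchymal and dedifferentiation genes above the limit, 1 was higher and 5 were lower (median -0.24). Over all genes tested, 20.0% were higher and 26.7% lower in both small tumors. Of 20 ribosomal protein genes none was higher and 9 were lower, by a median of -0.12. Over the 45 lists, 18 had a median above 1 and 3 one below -0.3; those 3 were MAPK output, mitosis and DNA replication.

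The defining pigment genes of melanocytes were almost silent in all 4 tumors, with Dct at or below 0.0604 FPKM and Tyr at or below 0.0678 FPKM. The labelled melanoma origin could therefore not be checked by pigment genes. Sox10, the neural crest factor of melanocytes and Schwann cells, cut across the groups instead. It was at 0.233 and 140 FPKM in the small tumors and at 189 and 0.713 FPKM in the large tumors. Erbb3, a receptor kinase, followed it, at 0.660 and 8.88 FPKM in the small and 28.3 and 0.109 FPKM in the large tumors. Small 2 and large 1 were thus the tumors with Sox10 transcript, and the 3 Prog_b2 tumors lay between 1.05 and 1.18 FPKM. Skeletal muscle genes were also unevenly spread, with Acta1, muscle actin, at 1.44 and 16.3 FPKM in the small and 13.5 and 1.79 FPKM in the large tumors. The keratinocyte marker Krt14 was at or below 0.0390 FPKM in all 4.

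The samples varied in their makeup as a whole. The first principal component of the 7 tumors, with 38.5% of the variance, placed the small tumors at 60.3 and 39.6 and the large tumors at -25.4 and -5.1, with Prog_b2 from -47.5 to 8. The second held 22.0%. Rank correlation across genes was 0.908 between the small tumors and 0.911 between the large tumors, and the closest pair was large 2 with Prog_b2 1 at 0.957. The small-large pairs lay between 0.853 and 0.911. Between 11370 and 12102 genes per tumor had at least 1 FPKM. Read counts were not used here and the depth is unknown; judged by the step that 1 fragment makes in weak genes, it spanned 1.41-fold over the 4 tumors.

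Residual and resistant tumors of batch 1, treated without the antibody, gave a second difference of the same kind. Res differed from Prog in 8262 of the same genes (68.7%; limma adjusted p below 0.05). Across the 12019 genes, the small-minus-large and Res-minus-Prog differences had a Spearman correlation of 0.617 and a Pearson correlation of 0.608. This is a description, since genes within a library are not independent, but the pairs share no tumor. Tested directly, the differences of 1785 genes were unequal (14.9%), with 1083 (9.01%) above and 702 (5.84%) below those of Res and Prog. This count rests on few tumors: it was 491 without large 1 and 724 without small 2. The antibody and the batch change together between the 2 pairs and cannot be told apart.

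**Figure D3:**
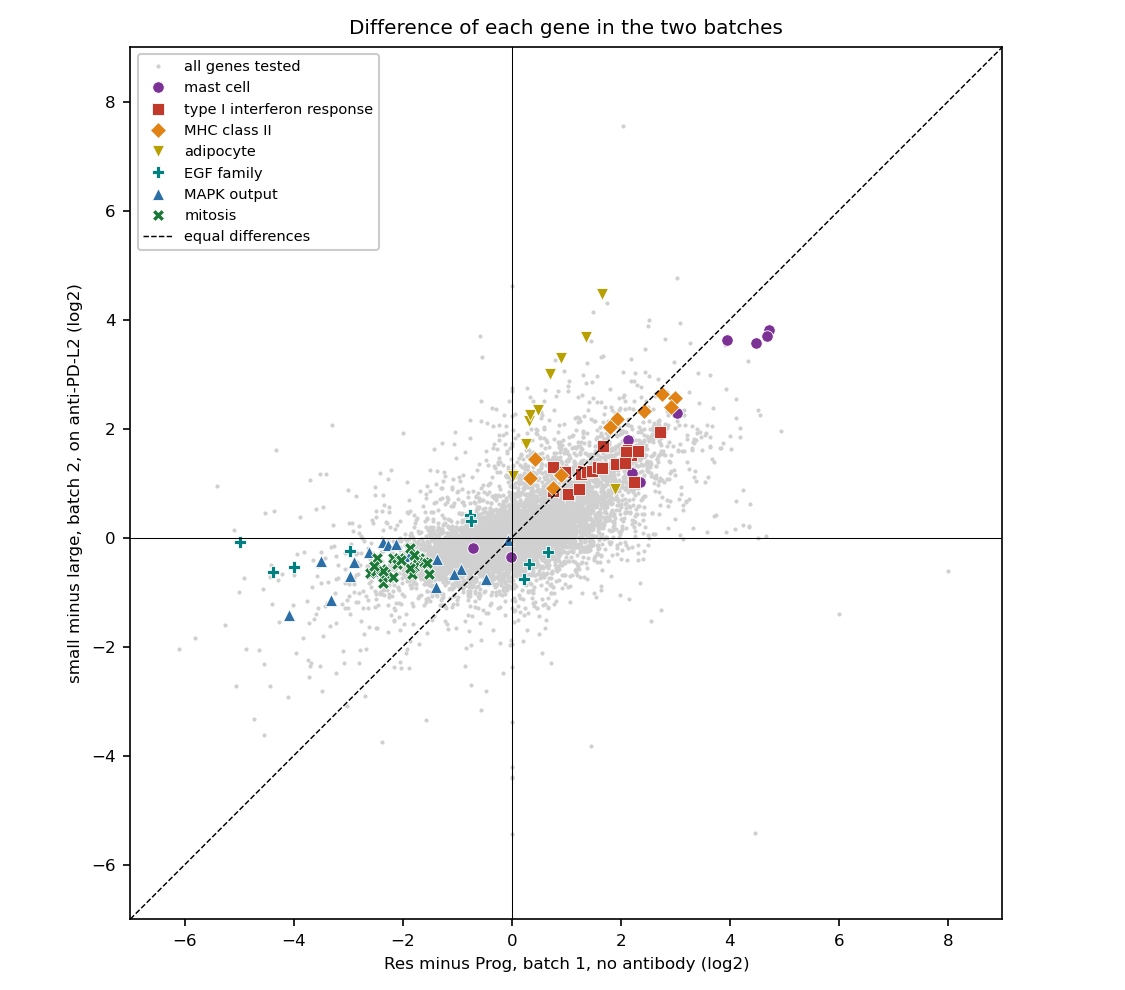
Log2 difference of small minus large tumors on anti-PD-L2 (vertical axis) against Res minus Prog tumors without the antibody (horizontal axis); each grey point is 1 of 12019 genes, coloured symbols are tested members of 7 lists, and the dashed line marks equal differences. Interferon, MHC class II and mast cell genes lie near the line, mitosis genes and most MAPK output genes lie far below 0 on the horizontal axis and close to 0 on the vertical axis, and most adipocyte genes lie well above the line.

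Mast cell, type I interferon and MHC class II genes stood near the line of equal differences. For the mast cell list the median was 2.04 for small minus large and 2.69 for Res minus Prog, for type I interferon 1.29 and 1.62, and for MHC class II 2.11 and 1.86. The difference of differences passed the test for 0 genes of each of these 3 lists. That does not show the differences to be equal, because their SE was wide, at 1.83 for Tpsb2, 1.34 for Oas3 and 0.91 for H2-DMa. Other host lists lay farther from equal medians, with 1.75 for small minus large and 3.12 for Res minus Prog in macrophage genes and 0.61 and 2.33 in neutrophil genes, although 0 genes of either passed. Among endothelial genes, with medians of -0.03 and 1.47, 10 of 14 passed, as did 5 of 17 lysosome and lipid handling genes (0.41 and 1.42) and 4 of 12 genes of alternative activation (2.01 and 1.31). For mitosis the medians were -0.53 and -2.09, and it passed for 19 of 24 genes. For MAPK output they were -0.44 and -2.12, with 9 of 19 genes passing. The small tumors thus differed from large ones less than Res differed from Prog in these 2 lists.

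Levels by group are given next. The antibody and the batch change together between the tumors on the antibody and Res or Prog. A gap in level between them cannot be ascribed to either. The mean of the MAPK output list, on the log2(FPKM + 1) scale, was 5.47 and 5.99 in the small and 6.56 and 5.91 in the large tumors. In Res it ran from 3.64 to 5.12 (median 3.70) and in Prog from 6.10 to 6.43 (median 6.13). Both small tumors were above every Res tumor in this list, and they lay below every Prog tumor, as did large 2. Mitosis gave the same order, at 3.55 and 3.69 in the small and 4.10 and 4.19 in the large tumors, with 2.19 to 2.96 in Res and 4.13 to 4.77 in Prog. Dusp6 averaged 166 FPKM in the small and 206 FPKM in the large tumors, against 38.2 ± 20.3 FPKM in Res and 221 ± 23.4 FPKM in Prog (SD, n = 5 each). Its small-minus-large difference exceeded Res minus Prog by 2.34 on the log2 scale (adjusted p = 0.00284). For the EGF receptor ligand Hbegf the excess was 3.45 (adjusted p = 0.00872). Hbegf averaged 137 FPKM in the small and 203 FPKM in the large tumors, against 10.6 ± 9.87 FPKM in Res and 151 ± 34.7 FPKM in Prog (SD, n = 5 each).

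**Figure D4:**
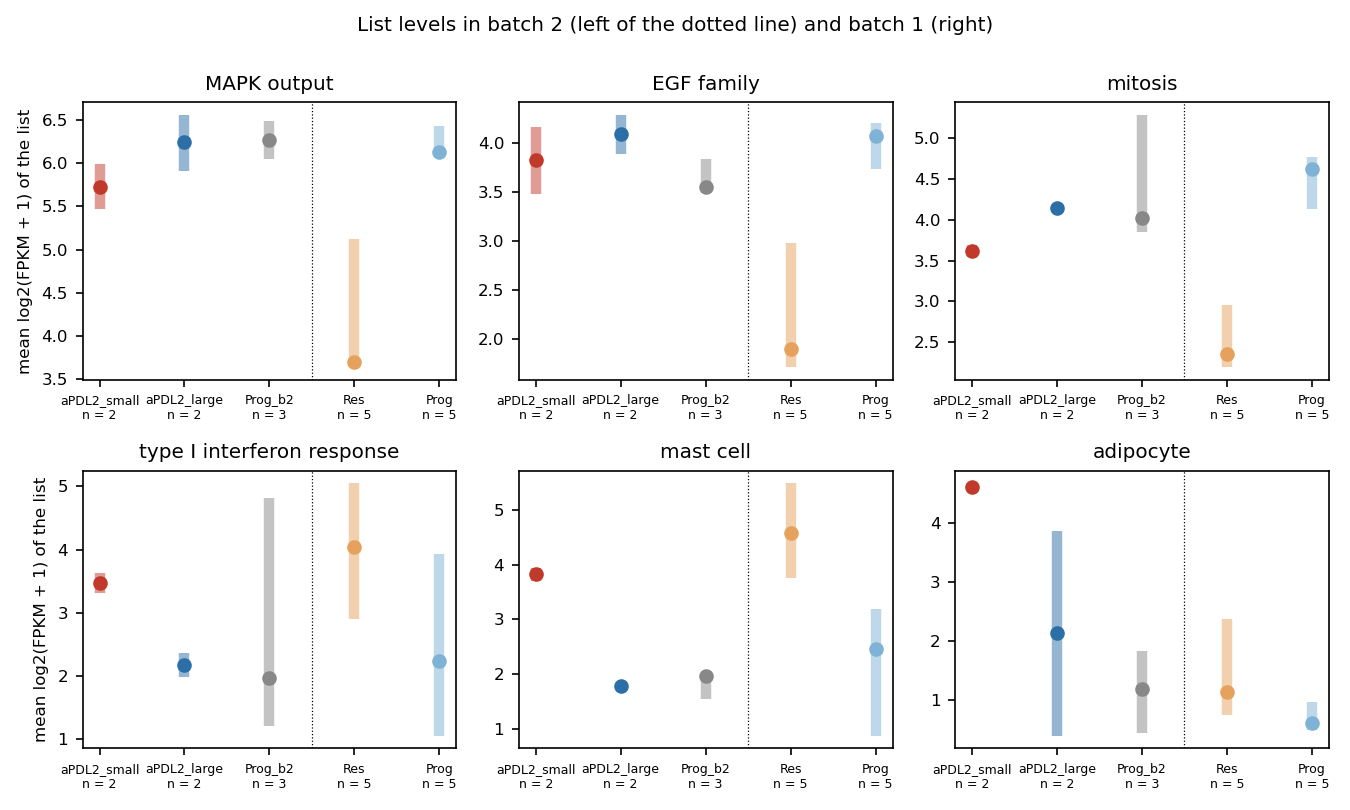
Mean log2(FPKM + 1) of 6 lists in 5 groups; dots are group medians and bars run from the lowest to the highest tumor. In MAPK output, EGF family and mitosis the small tumors lie above Res, in type I interferon and mast cell genes they lie within the range of Res or at its edge, and in adipocyte genes they lie above all other groups.

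Braf itself, chosen after its values were seen, gave the difference of differences with the smallest p. Braf was at 5.93 and 4.69 FPKM in the small tumors and at 5.33 and 5.00 FPKM in the large tumors (log2 difference 0.03 ± 0.22; adjusted p = 0.979). Prog_b2 tumors were alike, at 4.59, 4.33 and 5.69 FPKM. In batch 1, Braf averaged 5.61 ± 1.19 FPKM in Res and 44.2 ± 7.62 FPKM in Prog (SD, n = 5 each), so the differences were unequal by 2.80 on the log2 scale (adjusted p = 2.22e-06). The large tumors on the antibody therefore lacked the high Braf level of the Prog tumors, and so did the resistant tumors of their own batch.

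Expression shifts over whole chromosomes were looked for as a further way in which the tumors vary. Each tumor was compared with the mean of the other 6 tumors of the batch, and the median over the genes of a chromosome was taken, with gene order from RefSeq. Small 2 was low on chromosome 19 (-0.28 on the log2 scale, 435 genes) and on chromosome 18 (-0.25, 304 genes), and high on chromosome 15 (0.16, 488 genes). Large 2 was high on chromosome 19 (0.25) and low on chromosome 16 (-0.23, 362 genes). Small 1 and large 1 stayed within 0.15 of 0 on all 20 chromosomes. For chromosome 19 the small-minus-large median was therefore -0.29, carried by 1 tumor of each group: it was -0.53 for small 2 minus large 2 and -0.05 for small 1 minus large 1.

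**Figure D5:**
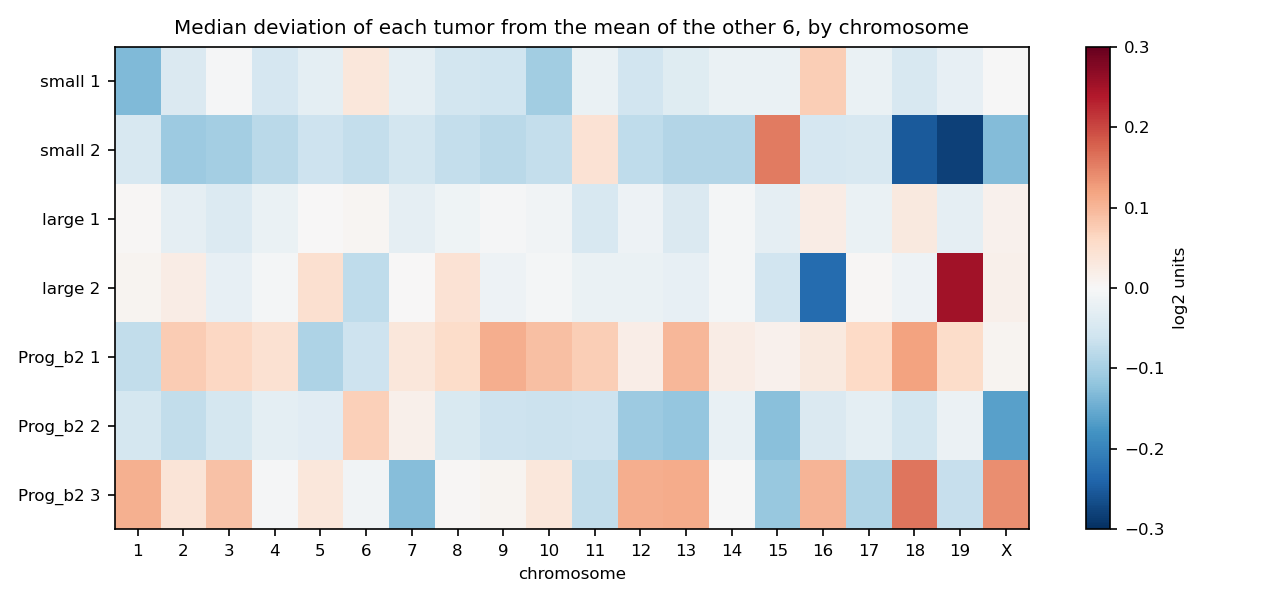
Median log2 deviation of each tumor of batch 2 from the mean of the other 6, over the genes of each chromosome; red is higher and blue lower. Small 2 stands out as low on chromosomes 18 and 19, and large 2 as high on 19 and low on 16.

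Over 11485 overlapping windows of 25 neighbouring genes, the highest small-minus-large median was 1.55, on chromosome 6 between Mfap5 and Ptpn6. Large 1 had its own lowest window there, at -0.98, and Mfap5 is on the fibroblast list. The lowest small-minus-large median was -0.62, on chromosome 19. In small 2 the highest window lay on chromosome 17 between H2-Oa and C4a, at 1.29, within the MHC cluster whose genes are described above.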

How the data were processed

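RNA of tumor biopsies was extracted with a mirVana kit, and unstranded TruSeq libraries of its poly(A) fraction were sequenced from both ends, per the labels' protocols. The authors deposited FPKM per gene symbol for 25 libraries. Per the submitters' processing notes, mm9, TopHat, TopHat2, Cuffnorm and Cuffdiff were used; the sources used here name neither their versions nor what each did. Values of near-identical or overlapping genes are uncertain, since the libraries are unstranded.

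Groups follow the labels. log2(FPKM + 1) was fitted with limma 3.58.1 in R 4.3.3 (lmFit, contrasts.fit, eBayes with trend), 1 term per group, over the 7 libraries of batch 2, which leaves 4 residual degrees of freedom. The fold changes understate weak genes because of the pseudocount of 1. Tests were two-sided, with Benjamini-Hochberg adjustment over 12019 genes. The difference between the small-large and Res-Prog contrasts used all 25 libraries. The fits were tested on simulated data. A value of exactly 0 can be a failed estimate: Spp1 is listed at 0 in Prog_b2 1 alone.

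The genes compared, the 45 lists (641 distinct genes, of which 555 were tested, 82 lay below the limit and 4 were not matched) and the tests were chosen with earlier results of these data known. Named genes are the 15 with the largest difference without overlap in each direction (leaving out predicted genes, RIKEN and LOC symbols, small RNAs and receptor segments), up to 4 of the smallest p per list, a fixed set (Dusp6, Spry4, Ccnd1, Mki67, Mitf, Axl, Pdgfrb, Emr1, Cd8a, Cd274, Pdcd1lg2, Pdcd1, Gzmb, Ifng), and the 5 largest and 5 smallest differences of contrasts. Other genes named were chosen after their values were seen. Of the tested symbols, 11328 matched RefSeq and 641 a synonym, and 50 matched neither. Python 3.11.15 with pandas 2.3.3, numpy 2.4.6 and matplotlib 3.10.9 was used. Other settings were a pseudocount of 0.1, other filters, size factors, other sets of libraries, a replicate block, library weights and no variance trend.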

Additional observations from a re-analysis of the deposited data

Results flagged for a closer look

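For 10 genes the small-minus-large difference on anti-PD-L2 and the Res-minus-Prog difference without it were unequal by limma's test over all 25 tumors, and these are the 5 largest values in each direction. The antibody and the batch cannot be told apart in any of them.

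Aldh1a3, a retinaldehyde dehydrogenase, had the highest value, 5.95 on the log2 scale (adjusted p = 0.00449). It was at 61.8 and 74.8 FPKM in the small and 21.3 and 21.8 FPKM in the large tumors, but averaged 3.31 ± 2.47 FPKM in Res and 88.8 ± 72.2 FPKM in Prog (SD, n = 5 each). Small tumors on the antibody were thus above large ones, and Res was below Prog. For Retnla the value was 5.52 (adjusted p = 0.00331), with 4.66 ± 4.15 FPKM in Res. The collagenase genes Mmp1a (5.23; adjusted p = 0.0254) and Mmp1b (4.99; adjusted p = 0.00735) are near-identical copies, and in both small 2 was high and small 1 was low: Mmp1a was at 0.310 and 95.8 FPKM in the small and 14.7 and 5.74 FPKM in the large tumors. The EGF receptor ligand Areg had 4.91 (adjusted p = 0.0321), with 7.54 ± 11.0 FPKM in Res and 162 ± 64.0 FPKM in Prog (SD, n = 5 each).

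Vcam1, an adhesion molecule of vessels and stroma, had -3.37 (adjusted p = 0.00176). It was at 25.4 and 25.6 FPKM in the small and 10.1 and 17.7 FPKM in the large tumors, and averaged 209 ± 61.4 FPKM in Res and 9.78 ± 1.72 FPKM in Prog (SD, n = 5 each). The hemoglobin gene Hba-a2 had -7.41 (adjusted p = 0.00673) and may share reads with the near-identical Hba-a1. The muscle genes Ckm, at -4.53 (adjusted p = 0.0498), and Actn3, at -3.48 (adjusted p = 0.0439), were high in Res, whose muscle list ranged from 3.17 to 6.77 on the log2(FPKM + 1) scale. Fibin, a secreted protein gene, had -4.07 (adjusted p = 0.0218), with 58.1 FPKM in large 1 and between 3.6 and 8.95 FPKM in the other tumors on the antibody.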

How the results depend on the processing

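The count of genes called between small and large tumors was 0 as reported, and also 0 with a pseudocount of 0.1, a filter over the 7 libraries, a mean of at least 5 FPKM, size factors, or the 4 libraries alone. It was 1 without a filter, 1 without the variance trend, 3 with library weights and 65 with all 25 libraries. Leaving out 1 library gave 0 to 11 calls; each fit without a small or large library assumes that the lone tumor of its group varies like the other groups. Without both libraries numbered 2, a setting chosen after seeing the data, it was 224. Without a filter, 4042 genes were higher and 3684 lower in both small tumors, so that more were higher, against 2401 and 3214 as reported; at a mean of at least 5 FPKM there were 1494 and 2640. The unequal differences between pairs numbered 491 to 1763 with 1 library left out. The cause of these shifts was not tested, other than the fewer tumors and genes of the settings themselves.

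The deviations of same-numbered libraries correlated at -0.23 across genes. This compares a single difference within each group, so it cannot tell whether the numbers pair the samples. With the replicate block, 0 genes were called between small and large tumors and 1823 in the difference of differences, and with the numbers crossed, chosen after seeing the data, 0.

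Of 3806 values of 203 named genes, 3731 kept their direction and side of the threshold, 44 of 33 genes passed it, and 31 of 21 genes changed sign. The 3731 is no measure of robustness. Settings that alter only the spread, such as all 25 libraries or no variance trend, leave the difference itself unchanged, so its sign was fixed. With 0 genes called as reported, keeping the side of the threshold means staying uncalled. For the 21 genes that changed sign, the ranges over all fits that leave out 1 library are given. The sign changed without large 1 for Nrg1 (-0.1 to 0.915), Tgfa (-1.835 to 0.324), Flt1 (-0.066 to 1.047), Dusp6 (-0.617 to 0.068) and Pdcd1lg2 (-0.242 to 0.872). The sign changed without large 2 for Pmp22 (-0.292 to 1.623). The sign changed without small 1 for Ednrb (-0.288 to 1.844), Tfap2a (-1.592 to 0.904), Btc (-1.429 to 0.171), Krt10 (-0.293 to 0.02) and Ncam1 (-0.864 to 0.138). The sign changed without small 2 for Mitf (-0.532 to 0.006), Cd79b (-0.043 to 2.929), Cd22 (-0.161 to 1.655) and Cd8a (-0.084 to 3.009). The sign changed without small 2 or without large 1 for Cd79a (-0.309 to 3.081) and Cd274 (-0.662 to 0.729). The sign changed without small 2 or without large 2 for Tnni2 (-0.096 to 1.436), Tnnc2 (-1.066 to 1.508), Myh4 (-1.058 to 1.505) and Tnnt3 (-1.136 to 1.438). Without both libraries numbered 2 the sign changed for Tnni2 (-0.776), Tnnc2 (-1.608), Myh4 (-1.971) and Tnnt3 (-2.014).

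With 2 tumors a group, the median SE of 0.28 limits what can be called, and tissue makeup varies between tumors of a group.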

Other observations

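Proteolysis and cell survival genes not described above also differed in level without overlap. Plau, the urokinase that starts plasmin formation, was at 137 and 60.3 FPKM in the small tumors and at 209 and 368 FPKM in the large tumors (log2 difference -1.60 ± 0.46; limma adjusted p = 0.513), and its receptor gene Plaur at 116 and 122 FPKM in the small and 169 and 330 FPKM in the large tumors. Plau was higher still in Prog_b2, at 884, 947 and 610 FPKM. Mmp14, a membrane-bound metalloproteinase, was at 334 and 316 FPKM in the small and 532 and 590 FPKM in the large tumors. Vegfc, a growth factor for lymphatic vessels, was at 5.47 and 4.12 FPKM in the small and 2.15 and 2.13 FPKM in the large tumors. Bcl2l1, which encodes the survival protein BCL-XL, was at 28.1 and 44.6 FPKM in the small and 68.6 and 51.2 FPKM in the large tumors. The BCL2 family as a whole leaned the other way, with 7 genes higher and 2 lower in both small tumors of 14 above the limit (median log2 difference 0.24). Over all genes tested, 20.0% were higher and 26.7% lower in both. Bcl2a1b, a survival gene of blood cells, was at 37.2 and 26.3 FPKM in the small and 6.29 and 8.75 FPKM in the large tumors, and may share reads with its near-identical copies. Among the transcription factors of the early response, Fos was at 44.6 and 47.6 FPKM in the small and 21.4 and 9.10 FPKM in the large tumors (log2 difference 1.64 ± 0.47, adjusted p = 0.513). Fos had the highest difference of its list. All 15 genes of that list passed the limit, 5 were higher and 2 lower in both small tumors (median log2 difference 0.08). Fosl1 lay lower, at 14.2 and 18.8 FPKM in the small and 21.6 and 29.95 FPKM in the large tumors.

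Genes of the Y chromosome, chosen after their values were seen, varied between tumors. Ddx3y was at 18.2 and 20.0 FPKM in the small tumors, at 6.11 and 11.1 FPKM in the large tumors, and at 27.8, 18.2 and 2.08 FPKM in Prog_b2. Eif2s3y was at 10.2 and 7.57 FPKM in the small and 1.21 and 3.07 FPKM in the large tumors (log2 difference 1.71 ± 0.36; limma adjusted p = 0.500, and 0.000252 with the spread of 25 tumors). In batch 1 it averaged 0.00371 ± 0.0051 FPKM in Res (SD, n = 5) and was listed at 0 in Prog, so this gene differed between the batches as well. Those values near 0 enter the spread of 25 tumors, so the smaller adjusted p does not measure the spread among tumors that express Eif2s3y. Xist, the transcript of the inactive X chromosome, was at or below 0.0223 FPKM in all 7.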
